A study of Mus musculus with 24 samples.

Results

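Gene expression in lung tissue was set against gene expression in the left ventricle of the heart in mice that had received only saline. The 3 arrays labelled lung, wild type and PBS (phosphate-buffered saline) were compared with the 3 arrays labelled heart left ventricle, wild type and PBS. These 6 arrays are among 24 in the series, which fall into 8 groups of 3. All mice were of the CD-1 strain, 20 weeks old and labelled male. The 18 other arrays came from the same tissues of wild-type mice given particulate matter (PM, 1.9 µm across, at 20 mg/kg, with tissue taken 36 h later) and of dnCREB mice given PM or PBS. In dnCREB mice a transgene driven by the alpha myosin heavy chain promoter, specific to cardiomyocytes, makes CREB1 that acts as a dominant negative. They enter below only where they are named. The design text gives 3 per group, and no label says whether the lung and the ventricle of a replicate number came from 1 mouse.

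RNA was hybridised to Affymetrix arrays, and each value is a GCRMA log2 signal of a probe set. The scales of the tissues differed over the whole range of the arrays. Lung arrays ran from a lowest value of 0.52 to 0.53, through a median of 4.10 to 4.16, to a highest value of 15.75 to 15.78. Heart arrays ran from -0.21 to -0.20, through a median of 3.28 to 3.37, to 17.41 to 17.70. A log2 value of lung was therefore not subtracted from one of heart, and no fold change between the tissues is given. Each of 17402 genes outside the X and Y chromosomes was ranked within its own array, and its percentile rank (0 lowest, 100 highest) was compared. A rank sets different probe sets against each other, so it gives a gene's place on the array and not the amount of its RNA. Values under log2 4 lie near the background of the probe set, and their order among themselves is not read as a level. In RNA from a whole tissue, fewer cells of a type and less RNA per cell cannot be told apart.

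The labels were checked against genes that should mark them. Sftpc, the surfactant protein made by alveolar type II cells, had log2 values of 15.12, 15.43 and 15.38 in the lung arrays (replicates 1, 2 and 3, the order used throughout) and 2.41, 2.35 and 2.34 in the heart arrays. Myh6, the main myosin heavy chain of the adult mouse ventricle, had 10.69, 12.24 and 12.02 in lung and 17.41, 17.70 and 17.48 in heart. A second Myh6 probe set read 3.45, 4.71 and 3.47 in lung and 15.96, 15.88 and 16.23 in heart. Both were lower in lung, but how high Myh6 reads in lung rests on the probe set. Xist, the RNA of the inactive X chromosome, lay between 2.15 and 2.72 in the 3 lung arrays and between 12.05 and 13.05 in the 3 heart arrays. The Y-linked Eif2s3y lay between 9.24 and 10.19 in lung and between 3.23 and 3.34 in heart. All 6 are labelled male, so the heart arrays go against that label, and within these 6 arrays tissue and sex markers cannot be told apart. Genes of X and Y were left out for this reason. Under PM, lung replicates 1 and 3 and all 3 hearts of wild-type mice had high Xist. With lung replicate 2 of that group left out, a setting chosen after seeing the data, 7703 of the 8406 genes called in saline and testable in both were called in the same direction, and 16 in the opposite one. One array stood apart. Lung replicate 1 correlated with the other lungs at r = 0.978 over all probe sets, while lung replicates 2 and 3 correlated at 0.995 and the hearts among themselves at 0.995 to 0.996. It lay at least 1 log2 unit above the mean of the other lungs in 844 of the 11418 genes tested and at least 1 below in 1166. Counts without it are given for lists that it moved.

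As background, the distal lung is built for gas exchange. Thin alveolar type I cells lie against capillaries, type II cells secrete surfactant, club and ciliated cells line the airways, and resident macrophages clear what is inhaled. The left ventricle is mostly cardiac muscle, whose contraction is driven by calcium release from the sarcoplasmic reticulum and paid for chiefly by mitochondrial oxidation of fatty acids. NKX2-1 in lung epithelium and NKX2-5 in heart muscle are NK2-class homeodomain proteins that bind related DNA letters built around CAAGTG. In mice, sleeves of cardiac muscle also run along the pulmonary veins into the lung.

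Promoters of 6 genes that read high in 1 tissue and at background in the other are shown, chosen because their windows hold letters searched below. They are not a sample of such genes, and the shares of promoters with each motif are given below. Each runs from 250 bases before to 50 bases after a transcription start, from RefSeq on GRCm38.p6, 5′ to 3′ on the strand of the gene. Capitals mark the letters searched, on either strand: the NK2 letters CAAGTG, the TATA box written TATAAA, one form of a MEF2 site written CTAAAAA and one form of a GATA site written AGATAA.
Sftpa1, chr14:41131538-41131837 (+): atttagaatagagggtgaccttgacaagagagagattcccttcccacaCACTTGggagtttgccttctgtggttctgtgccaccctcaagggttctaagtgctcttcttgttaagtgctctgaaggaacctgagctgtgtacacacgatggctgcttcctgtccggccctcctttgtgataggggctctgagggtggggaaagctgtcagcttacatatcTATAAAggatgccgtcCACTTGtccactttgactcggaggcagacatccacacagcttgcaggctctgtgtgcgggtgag
Cyp2f2, chr7:27119705-27120004 (+): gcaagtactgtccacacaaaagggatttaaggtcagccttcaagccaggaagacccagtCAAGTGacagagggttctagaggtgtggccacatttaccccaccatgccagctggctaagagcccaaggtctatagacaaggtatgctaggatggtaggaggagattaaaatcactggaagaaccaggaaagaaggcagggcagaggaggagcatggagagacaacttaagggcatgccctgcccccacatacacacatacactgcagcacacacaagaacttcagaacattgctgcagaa
Myl7, chr11:5898733-5899032 (-): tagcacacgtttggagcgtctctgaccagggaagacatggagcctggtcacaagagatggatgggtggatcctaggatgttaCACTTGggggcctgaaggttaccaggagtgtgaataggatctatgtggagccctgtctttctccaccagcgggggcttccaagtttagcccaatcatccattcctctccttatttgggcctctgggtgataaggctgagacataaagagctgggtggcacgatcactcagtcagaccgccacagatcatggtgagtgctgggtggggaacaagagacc
Nppb, chr4:147985650-147985949 (+): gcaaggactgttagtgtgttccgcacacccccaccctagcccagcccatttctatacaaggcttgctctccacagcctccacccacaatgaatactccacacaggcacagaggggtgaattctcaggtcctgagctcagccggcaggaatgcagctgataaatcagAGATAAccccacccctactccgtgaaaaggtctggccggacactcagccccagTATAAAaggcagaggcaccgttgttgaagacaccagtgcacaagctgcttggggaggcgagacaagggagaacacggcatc
Nrap, chr19:56389989-56390288 (-): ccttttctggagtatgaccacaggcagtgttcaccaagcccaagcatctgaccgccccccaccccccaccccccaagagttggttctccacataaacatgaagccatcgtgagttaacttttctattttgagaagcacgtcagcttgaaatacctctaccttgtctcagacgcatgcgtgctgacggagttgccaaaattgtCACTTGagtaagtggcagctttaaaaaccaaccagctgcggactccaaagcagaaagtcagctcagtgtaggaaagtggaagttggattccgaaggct
Hrc, chr7:45335019-45335318 (+): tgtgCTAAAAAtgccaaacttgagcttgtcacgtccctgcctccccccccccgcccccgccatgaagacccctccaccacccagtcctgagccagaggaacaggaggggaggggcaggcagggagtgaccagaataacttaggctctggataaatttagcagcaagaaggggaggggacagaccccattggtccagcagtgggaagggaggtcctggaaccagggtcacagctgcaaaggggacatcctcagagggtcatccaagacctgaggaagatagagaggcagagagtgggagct

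Sftpa1 encodes surfactant protein A and Cyp2f2 a cytochrome P450 of club cells. The Sftpa1 window held the NK2 letters 202 and 14 bases before the start and TATAAA 30 bases before it, and the Cyp2f2 window held the NK2 letters 191 bases before the start. Myl7, the atrial form of a myosin light chain, held them 168 bases before and read high in lung. Among the heart genes, Nppb (B-type natriuretic peptide) held TATAAA 31 and AGATAA 84 bases before its start, Nrap (a muscle anchoring protein) held the NK2 letters 48 bases before, and Hrc (a calcium-binding protein of the sarcoplasmic reticulum) held CTAAAAA 246 bases before. The values of these genes follow.

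Most genes held a different place in the tissues. Of 11418 genes with at least 3 of the 6 arrays above log2 4, 8495 (74.4%) differed in rank between lung and heart at a Benjamini-Hochberg adjusted p under 0.05 (limma on ranks turned to normal scores, 3 arrays against 3). Of these, 4518 (39.6%) were higher in lung and 3977 (34.8%) lower. With a mean difference of at least 25 percentile points asked for as well, 2129 (18.6%) were called, 1318 (11.5%) higher and 811 (7.10%) lower in lung. The split depends on the scale, since centring each array's log2 values on their median gave 2438 higher and 7408 lower and moved the median difference of all genes tested to -1.60 on the log2 scale. Genes named below with a small rank difference can change sign with that shift, and they are named where they do. No gene with a difference of 25 points or more was called in the opposite direction under any of the scalings, filters or left-out arrays tried. The median difference over all genes tested was 0.764 points, lung minus heart. The shares of 39.6% higher and 34.8% lower are the background for the list counts below. Without lung replicate 1 they were 5114 and 4533 of 11418 genes. The filter bears on those counts too. A gene under log2 4 in every array of 1 tissue enters the test only through the other. For such genes the direction was largely set by the filter, and the counts describe it without testing it. The plot of mean ranks shows the genes described below in the corners away from the diagonal.

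**Figure D1:**
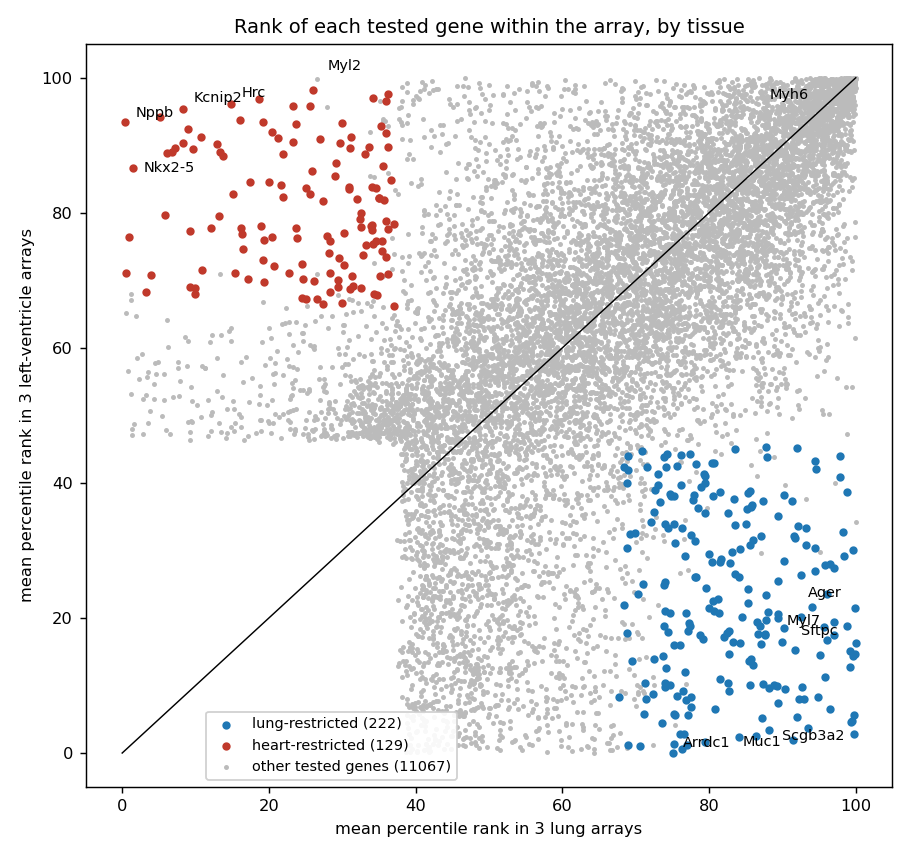
Mean percentile rank of each tested gene in 3 lung arrays (x axis) and 3 left-ventricle arrays (y axis). Blue points are the 222 lung-restricted genes, red points the 129 heart-restricted genes, grey points the other genes tested, and the line marks equal ranks. Sftpc, Scgb3a2 and Ager lie at the lower right, Nppb, Nkx2-5 and Kcnip2 at the upper left.

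Of the 17402 genes ranked, 222 (1.28%) were lung-restricted, that is above log2 8 in all 3 lung arrays and under 4 in all 3 heart arrays, and 129 (0.741%) were heart-restricted by the same rule turned round. These values chose the genes and are given as a description, with no test. The counts move with the scale too: 95 lung and 213 heart genes met the rule after each array was centred on its median. Genes of the lung surface led the lung side. Scgb3a2, a secretoglobin of airway epithelium, read 14.46, 14.05 and 14.48 in lung and 1.75, 1.70 and 1.75 in heart. Sftpa1 read 13.80, 14.52 and 14.53 in lung and 1.95, 1.89 and 1.94 in heart, and Cyp2f2 read 13.34, 13.44 and 13.88 against 1.89, 1.85 and 1.90. All 3 stood at or above the 99.4th percentile in lung and at or under the 5.62nd in heart. Others among the 12 with the largest difference of mean normal score, the measure that chose the genes named here, were Cxcl15 (lungkine, a chemokine of lung epithelium), Ager (the receptor RAGE, abundant on type I cells), Slc34a2 (the phosphate transporter of type II cells), Sftpd (surfactant protein D), Wfdc2 and Sec14l3. Muc1, a surface mucin, read 10.55, 10.50 and 10.64 in lung and 1.66, 1.61 and 1.66 in heart. Arrdc1, an arrestin-domain adaptor protein, was the least highly ranked of the 12, with 8.82, 8.63 and 8.78 in lung and 0.84, 0.83 and 0.84 in heart. It stood at the 75.1st percentile in lung and the 0.07th in heart. The order of values at background thus enters the measure that chose the genes named, on both sides.

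On the heart side, Nppb read 1.51, 1.49 and 1.49 in lung and 12.24, 12.74 and 11 in heart. Nkx2-5 read 1.79, 1.78 and 1.77 in lung and 10.52, 10.81 and 10.68 in heart. They stood at a mean percentile of 0.351 (Nppb) and 1.47 (Nkx2-5) in lung, although Nppb did not stay there in other lungs, where it read 1.51 to 6.43 over the 9 other arrays. Kcnip2, a subunit of the fast transient outward potassium channel, read 2.17, 2.12 and 2.13 in lung and 12.36, 12.50 and 12.38 in heart. Hrc read 2.25, 2.38 and 2.48 in lung and 12.56, 12.77 and 12.68 in heart, and Nrap 2.64, 2.76 and 2.75 against 12.41, 12.68 and 12.67. Myot, the Z-disc protein myotilin, read 2.18, 2.15 and 2.17 in lung and 12.17, 10.83 and 12.37 in heart. Alpk2 (an alpha-kinase), B3galt5 (a galactosyltransferase), Fitm1 (a lipid-droplet protein of muscle), Yipf7, Fhod3 (a formin of the sarcomere), Rpl3l (the muscle paralog of a ribosomal protein) and Me3 (a mitochondrial malic enzyme) made up the rest of the 12. In none of the 24 genes named by this rule did a lung and a heart array overlap, which the rule itself fixes.

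Some genes met or missed the thresholds by a hair. Ccn5, with 8.0 in lung replicate 1, and Slc39a4, with 8.01 there, were the last to enter on the lung side, and Tnfsf13b and Rbm34 missed at 8.0 in lung replicate 3. On the heart side Rhbdd3 entered with 8.0 in heart replicate 3 and Abcc8 with 3.99 in lung replicate 1, while Popdc2 missed at 4.0 in lung replicate 3 and Kcna7 at 8.0 in heart replicate 2.

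The other 18 arrays, which the rule did not use, were read next. In all of them 135 of the 222 lung genes and 53 of the 129 heart genes kept their tissue's side of both thresholds. All 12 lung genes named above did so, and 5 of the 12 heart genes. The rule applied afresh to wild-type mice under PM found 307 lung and 119 heart genes. It shared 180 lung genes with saline (81.1% of the saline list and 58.6% of the PM list) and 99 heart genes (76.7% and 83.2%). In dnCREB mice under PBS it found 240 lung and 99 heart genes, of which 171 (77% of the wild-type list) and 72 (55.8%) were shared, and in dnCREB mice under PM 222 and 94, of which 157 (70.7%) and 73 (56.6%) were shared. No gene was restricted to opposite tissues between wild-type saline and any of these. Where a gene had several probe sets the rule was asked of each. It held for every probe set of 137 lung and 81 heart genes, and 104 lung and 58 heart genes had more than 1 probe set. The 137 and 81 include all genes with a single probe set, which meet this by definition. Most genes with several therefore had at least 1 probe set that missed the rule.

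Some lung-restricted genes lay beside each other on the chromosome. Of the 222, 26 (11.7%) had another lung-restricted gene within 100 kb, against 843 of the 17180 other ranked genes (4.91%), a difference that was not tested. The pairs included Sftpa1 and Sftpd, Scnn1b and Scnn1g (subunits of the epithelial sodium channel), Tbx2 and Tbx4, Foxf1 and the noncoding RNA Fendrr, Krt8 and Krt18, Bpifa1 and Bpifb1, Chia1 and Chil3, Cxcl15 and Ppbp, and Sec14l3 and Sec14l4. Of the 129 heart-restricted genes 4 (3.10%) had a heart-restricted neighbour, against 556 of 17273 other ranked genes (3.22%): Hhatl with Klhl40 and Doc2g with Nudt8. Neighbouring paralogs can share sequence, and whether their probe sets cross-hybridise was not tested.

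Promoter letters were counted for the restricted genes that the RefSeq table holds, 171 of 222 lung and 98 of 129 heart genes. CAAGTG on either strand stood in 16.8% of 208 lung promoters and 22.0% of 132 heart promoters, against 12.1% of 17348 promoters of all genes ranked. TATAAA stood in 14.9% of lung, 11.4% of heart and 9.64% of all promoters, and AGATAA in 9.13%, 12.1% and 7.97%. The 7 letters CTAAAAA were no more frequent than elsewhere, at 1.92% of lung, 2.27% of heart and 2.54% of all promoters. CCGGAAG (an ETS site) stood in 6.25% of lung, 4.55% of heart and 13.2% of all promoters, and GGGCGG (an SP site) in 50.5%, 38.6% and 52.6%. TGTTTAC (a forkhead site) stood in 3.85% of lung promoters, in none of the 132 heart promoters and in 2.96% of all. These shares describe the windows and carry no test.

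Epithelial genes were higher in lung almost without exception, beside 39.6% of all genes tested. All 12 alveolar type II markers tested passed, with a median difference of 80.1 points over the 13 measured. Of these 13, 12 exceeded log2 4 in every lung array and 5 in every heart array. Lpcat1, which makes surfactant phospholipid, read 12.82, 13.07 and 13.14 in lung and 7.51, 7.96 and 7.65 in heart, a difference of 35.3 points. Its normal score was 1.97 ± 0.04 higher in lung (SE, limma adjusted p = 5.68e-07). Pgc stayed under 4 in every array and was not tested. All 12 alveolar type I markers passed as well, but 5 of them by less than 25 points. Cldn18, a tight junction protein, read 12.60, 12.69 and 12.60 in lung and 2.89, 2.80 and 2.91 in heart, and the water channel Aqp5 read 11.23, 11.66 and 11.76 against 2.19, 2.13 and 2.19. Hopx, used as a type I marker and also a cardiac gene, stood at the 99.6th percentile in lung and the 98.0th in heart, a difference of 1.57 points. Cav1, the caveolin of endothelium and type I cells, stood at the 99.5th and the 96.3rd. Both were lower in lung on centred values.

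All 14 airway secretory markers passed, with a median difference of 58.5 points. All 14 exceeded log2 4 in every lung array and 1 did in every heart array, so the filter left most of them only this direction. Scgb1a1, the club cell secretoglobin, read 15.41, 15.66 and 15.72 in lung and 2.63, 6.30 and 2.64 in heart, where replicate 2 stood apart. Hp (haptoglobin) read 14.11, 13.54 and 14.04 in lung and 2.94, 2.87 and 2.91 in heart, and Cbr2 (a lung carbonyl reductase) 14.22, 14.46 and 14.54 against 9.64, 9.86 and 9.43. Muc16, a large surface mucin, was moderate in lung at 6.01, 5.64 and 5.25 and at 1.56, 1.52 and 1.55 in heart. Of 15 ciliated-cell genes 14 passed, with a median of 28.3 points. Here too the filter bears on the direction, since all 15 exceeded log2 4 in every lung array and 4 did in every heart array. The axonemal dyneins Dnah9 (4.66, 5.13 and 4.63 in lung, 1.91, 1.86 and 1.91 in heart) and Dnah5 (4.66, 5.45 and 4.81 against 2.02, 1.98 and 2.02) were low in lung too, while Dynlrb2, a dynein light chain, reached 11.19, 10.69 and 10.29 against 3.10, 3.04 and 3.10. Hydin, a protein of the ciliary central pair, did not pass (5.70, 5.98 and 5.66 in lung, 4.50, 4.47 and 4.52 in heart, limma adjusted p = 0.134).

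Of 16 genes of epithelial junctions and keratins tested, 15 were higher in lung, with a median of 57.0 points over 17 measured. Of the 17, 16 exceeded log2 4 in every lung array and 2 in every heart array. Cdh1 (E-cadherin) read 12.27, 12.24 and 12.31 in lung and 3.55, 3.43 and 3.57 in heart, and Krt7 11.38, 11.88 and 11.58 against 2.40, 2.35 and 2.40. Krt8, Krt19, Cldn3 and the splicing factor Esrp2 differed by 61.6 to 78.8 points. Epcam, an epithelial adhesion molecule, went the other way in the probe set that the ranking used, with 5.41, 5.42 and 5.38 in lung and 9.46, 9.29 and 9.48 in heart. Its second probe set read 10.14, 10.00 and 9.60 in lung and 2.72, 2.64 and 2.69 in heart, so its direction rests on the choice of probe set. The distance between genes within a list was wide, as the plot of all lists shows.

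**Figure D2:**
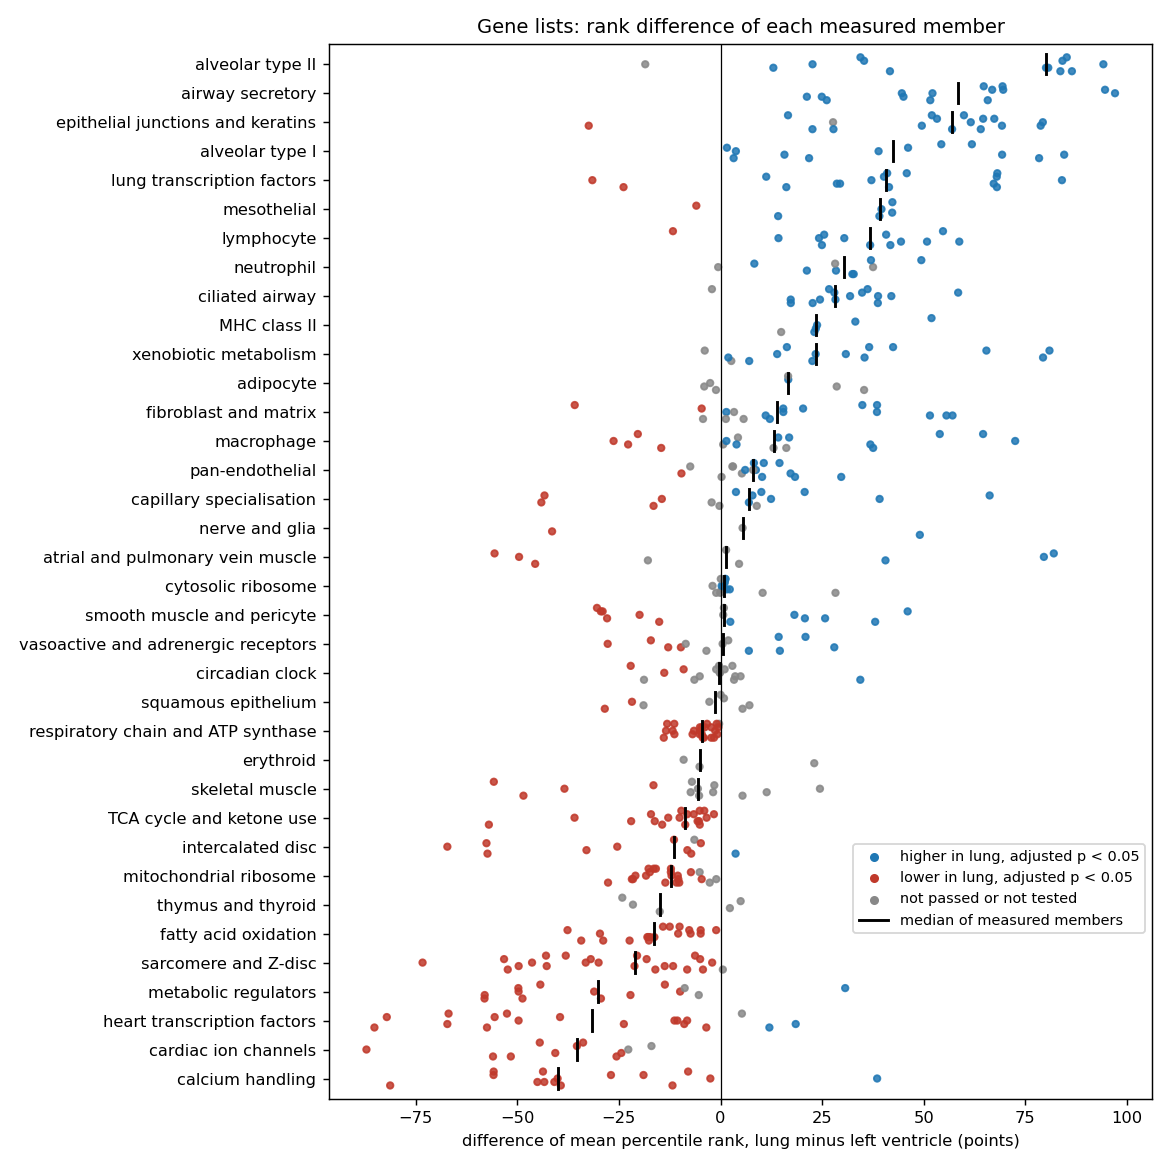
Difference of mean percentile rank, lung minus left ventricle, in points (x axis), for each measured member of each gene list. Blue points were higher and red points lower in lung at an adjusted p under 0.05, grey points did not pass or were not tested, and bars mark the median of the measured members, from 80.1 points for alveolar type II markers to -40.1 for calcium handling.

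Transcription factors of lung and of heart separated by tissue. Of 16 lung factors 14 were higher and 2 lower in lung (median 40.6 points), and of 18 heart factors 2 were higher and 15 lower (median -31.6 points), beside 39.6% and 34.8% of all genes tested. Of the lung factors 15 exceeded log2 4 in every lung array and 4 in every heart array. For the heart factors these counts were 12 and 17, so the filter bears on the direction in both lists, most in the lung factors. Foxa2 and Foxa1, forkhead factors of endoderm, read 10.06, 9.80 and 9.83 and 10.31, 10.01 and 9.97 in lung, against 1.72, 1.67 and 1.73 and 2.53, 2.47 and 2.58 in heart. Nkx2-1, the lung epithelial factor, was low but above 4 in lung (4.93, 5.02 and 5.66) and at 1.64, 1.59 and 1.63 in heart, so it missed the rule for restricted genes. Klf5 read 9.40, 9.48 and 9.64 in lung and 3.99, 4.02 and 4.03 in heart. Hoxa5 was lower in lung in the ranked probe set (7.18, 6.99 and 7.17 in lung, 11.10, 10.94 and 11.18 in heart), but its other probe set read 8.81, 10.11 and 10.27 in lung and 3.23, 3.19 and 3.23 in heart. Sox9 was lower in lung at 4.30, 3.91 and 3.95, against 7.26, 7.19 and 7.54 in heart.

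Among the heart factors, Hand2 read 2.16, 2.13 and 2.14 in lung and 11.35, 11.13 and 11.27 in heart, and Irx4, a ventricular factor, 1.98, 1.96 and 1.96 against 8.40, 8.95 and 8.76. Smyd1, a muscle histone methyltransferase, read 4.78, 4.76 and 4.49 in lung and 13.61, 13.44 and 13.83 in heart. Tbx20 stood at the 39.0th percentile in lung and the 94.5th in heart, and the nuclear receptor Esrrg at the 36.2nd and the 85.9th. The related factors Irx3 and Irx5 went the other way, Irx3 with 10.72, 10.88 and 10.65 in lung and 8.50, 9.44 and 9.32 in heart (18.5 points) and Irx5 with 7.64, 8.16 and 7.96 against 4.65, 6.21 and 6.31 (12.0 points). Tbx5 was the 1 factor that did not pass (4.66, 6.63 and 6.87 in lung, 3.78, 3.61 and 4.01 in heart, limma adjusted p = 0.282), and without lung replicate 1 the counts were 3 higher and 15 lower. Gata6 was present in both and differed by -10.6 points, while Gata4 read 2.47, 2.46 and 2.46 in lung and 10.03, 10.74 and 10.42 in heart.

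The listed sarcomere genes were lower in lung, and most read above background there in the probe set that was ranked. Other probe sets can read lower in lung, as for Myh6 above. Of 23 tested, 22 were lower and 0 higher, with a median of -21.2 points, beside 34.8% lower and 39.6% higher over all genes tested. In 21 of the 23 all 3 lung arrays exceeded log2 4, and none was heart-restricted. Tnnt2, cardiac troponin T, read 11.02, 10.95 and 11.05 in lung, the 93.7th percentile, and 16.84, 17.05 and 16.95 in heart. The M-line genes Myom1 and Myom2 and the thick-filament gene Mybpc3 differed more, by 46.4 to 52.4 points, with Mybpc3 at 5.15, 5.95 and 6.11 in lung and 14.11, 14.41 and 14.14 in heart. Ckm, muscle creatine kinase, read 7.40, 6.95 and 6.63 in lung and 14.79, 15.11 and 14.92 in heart. Nebl, a Z-disc protein, was high in both (98.0th percentile in lung, 97.4th in heart) and did not pass.

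Muscle light chains split by heart chamber, in genes chosen after their values were seen. Myl2 and Myl3, the ventricular chains, were low in lung, with Myl2 at 6.26, 2.35 and 2.36 in lung and 15.65, 15.92 and 15.78 in heart, and Myl3 at 7.63, 4.90 and 3.54 against 16.18, 16.42 and 16.30. Only lung replicate 1 read Myl2 above 4. Myl7, the atrial chain, was lung-restricted at 12.47, 11.99 and 11.46 in lung and 2.41, 2.38 and 2.42 in heart (79.6 points), and Myl4 read 11.14, 10.49 and 10.48 in lung and 4.64, 5.28 and 5.32 in heart. Sln, the atrial calcium pump regulator sarcolipin, read 11.26, 9.44 and 9.69 in lung and 1.92, 1.87 and 1.93 in heart. Other genes of atrium did not follow. Nppa, atrial natriuretic peptide, read 6.36, 4.93 and 7.64 in lung and 12.59, 13.99 and 13.84 in heart, and Kcnj3 and Kcnj5, which form the muscarinic potassium channel, differed by -49.6 and -55.6 points. Bmp10, Gja5 and Shox2 stayed under 4 in every array. Of 9 atrial or pulmonary-vein genes measured, 3 were higher, 3 lower and 3 untested, beside 39.6% higher and 34.8% lower over all genes. Of 13 skeletal muscle genes, Acta1 and Myl1 exceeded 4 in all 3 lung arrays and were lower there than in heart, at 5.35, 5.96 and 6.93 in lung for Acta1 and at 5.67, 4.67 and 4.31 in lung for Myl1. The part of pulmonary-vein muscle in these values was not tested.

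**Figure D3:**
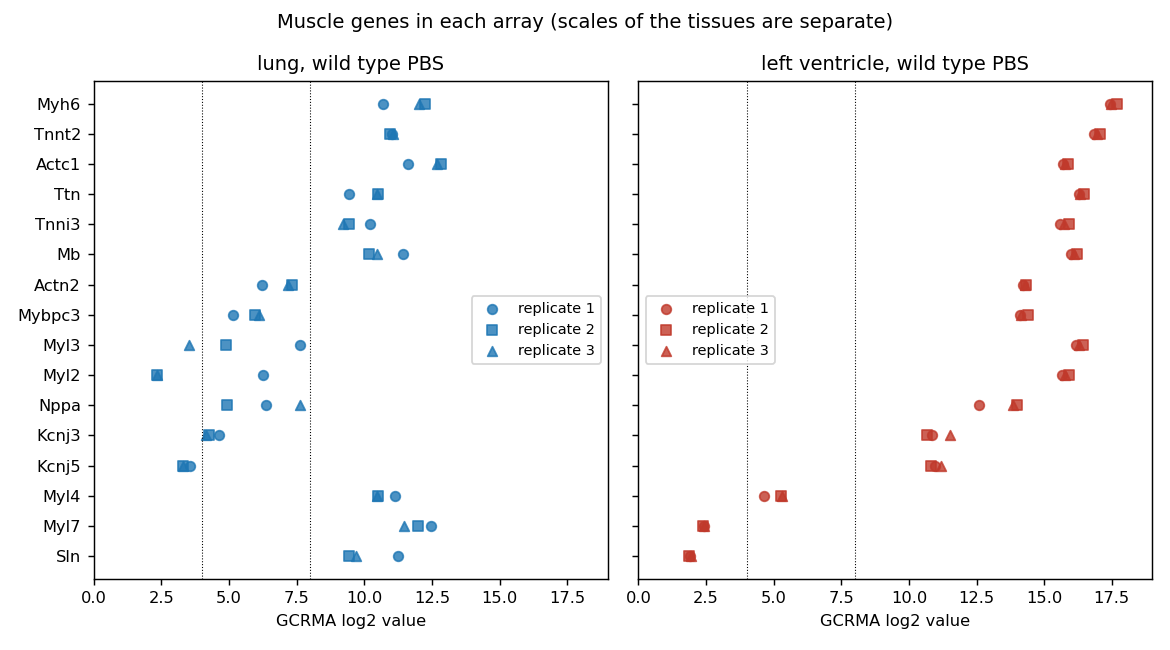
GCRMA log2 value (x axis) of 16 muscle genes in each of 3 lung arrays (left) and 3 left-ventricle arrays (right), with a marker shape per replicate and dotted lines at 4 and 8. The scales of the panels are separate. Myl4, Myl7 and Sln are high on the left, with Myl7 and Sln under 4 and Myl4 at 4.64 to 5.32 on the right, while Myl2 and Myl3 are low on the left and high on the right.

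Calcium handling and ion channels, which drive the heartbeat, differed strongly. Of 15 calcium-handling genes 14 were lower in lung, with a median of -40.1 points, the lowest of any list. Over all genes tested 34.8% were lower. Ryr2, the calcium release channel, read 7.13, 7.62 and 7.42 in lung and 15.34, 15.63 and 15.62 in heart, and Casq2, the calcium store protein, 6.88, 7.01 and 6.92 against 14.57, 14.83 and 14.67. Trdn (triadin) and Srl (sarcalumenin) differed by -55.8 and -40.9 points. Fkbp1b, which binds the release channel, was the exception at 6.12, 6.05 and 6.11 in lung and 2.15, 2.09 and 2.15 in heart. All 9 cardiac ion channel genes tested were lower in lung, with a median of -35.3 points over 11 measured. Of the 11, 9 exceeded log2 4 in every heart array and 4 in every lung array. The potassium channel genes Kcnd2, Kcnd3, Kcnh2 and Kcnj11 differed by -51.6, -40.7, -35.3 and -33.8 points. Hcn2, a pacemaker channel, read 4.11, 4.04 and 4.05 in lung and 7.65, 7.68 and 7.64 in heart.

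Of 11 intercalated disc genes, which join heart muscle cells end to end, 9 were lower and 1 higher in lung. Over all genes tested 34.8% were lower and 39.6% higher. Cdh2 (N-cadherin) read 5.10, 4.77 and 5.11 in lung and 15.14, 15.23 and 15.20 in heart, while E-cadherin, above, ran the other way. Xirp1 was heart-restricted at 2.76, 2.75 and 2.63 in lung and 11.12, 11.40 and 11.30 in heart. The desmosomal genes Dsc2 and Dsp differed by -57.6 and -7.21 points, and Dsp stood at the 92.2nd percentile in lung. Vcl, vinculin, was higher in lung (11.12, 12.26 and 12.39 in lung, 11.67, 12.07 and 11.57 in heart, 3.70 points, limma adjusted p = 0.0335), and lower on centred values. Jup, plakoglobin, did not pass (limma adjusted p = 0.441).

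Mitochondrial genes were lower in lung as a body, in small steps. All 19 fatty acid oxidation genes, all 19 genes of the TCA cycle and ketone use, 24 of 25 respiratory chain and ATP synthase genes and 19 of 22 mitochondrial ribosome genes were lower in lung, and none of them was higher, beside 34.8% lower over all genes tested. Without lung replicate 1, 25 of 25 respiratory chain and 22 of 22 mitochondrial ribosome genes were lower. The median differences were -16.3, -8.69, -4.57 and -12.2 points, and 4, 2, 0 and 1 genes differed by 25 points or more. Lung sat high on its own arrays for these genes, with a median at the 95.0th percentile for the respiratory chain, so few points were left above it. Acadl, the long-chain acyl-CoA dehydrogenase, read 10.66, 10.72 and 10.55 in lung and 15.19, 15.37 and 15.29 in heart. Acads, the short-chain enzyme, read 6.57, 6.56 and 6.49 against 10.65, 10.79 and 10.54 (-34.3 points), and Cpt2, of the carnitine shuttle, differed by -28.9 points. Bdh1, the ketone body dehydrogenase, showed the largest difference of the TCA and ketone list, at 5.11, 4.45 and 3.82 in lung and 12.90, 12.93 and 12.86 in heart (-57.0 points). Ndufs1 of complex I read 9.62, 9.72 and 9.77 in lung and 14.15, 14.34 and 14.27 in heart. Cox4i1 did not pass (99.4th percentile in lung, 99.7th in heart, limma adjusted p = 0.0855).

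Of 14 regulators of this metabolism 11 were lower and 1 higher in lung, with a median of -30.3 points. Over all genes tested 34.8% were lower and 39.6% higher. Ppargc1a, the coactivator of mitochondrial genes, read 4.94, 5.59 and 5.13 in lung and 11.99, 11.98 and 11.41 in heart, and Ppara, the nuclear receptor of fatty acid oxidation, 4.90, 5.43 and 4.95 against 11.66, 11.58 and 11.06. Ppargc1b read 4.70, 4.72 and 4.68 in lung and 10.39, 10.60 and 10.34 in heart. The estrogen-related receptor Esrrb was heart-restricted (2.21, 2.19 and 2.20 in lung, 8.27, 8.30 and 8.45 in heart). Nrf1, a factor for nuclear-encoded respiratory genes, was the 1 higher in lung, at 6.76, 6.58 and 6.68 against 2.62, 2.57 and 2.62. Another Nrf1 probe set was also higher in lung, at 5.83, 5.17 and 5.26 against 1.94, 1.89 and 1.95. A further probe set did not pass, at 4.34, 5.50 and 4.91 in lung and 3.68, 4.61 and 3.34 in heart.

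Pairs of related genes, of which 1 serves many tissues or lung and 1 muscle or heart, were followed next, each symbol against itself across tissues. Of 25 pairs 21 had both members measured. The muscle or heart member was lower in lung in 21 of 21 pairs, beside 34.8% of all genes tested. Its partner was higher in lung in 12, lower in 7 and did not pass in 2. No pair had both members higher in lung.

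Cytochrome oxidase gave a clear example. Cox6a2 and Cox8b, the muscle forms, differed by -27.7 and -29.6 points, with Cox8b at 9.57, 7.73 and 7.58 in lung and 15.08, 15.13 and 15.00 in heart. Cox6a1 and Cox8a, the wider forms, were higher in lung by 1.56 and 19.7 points, Cox6a1 turning on centred values. Of the third pair, Cox7a1 and Cox7a2, both were lower, with -25.6 and -0.759 points. The adenylosuccinate synthases crossed over, with Adss at the 89.2nd percentile in lung and the 53.7th in heart and Adssl1 at the 54.2nd and the 93.2nd. The acetyl-CoA carboxylases did too, Acaca with 14.5 points and Acacb with -45.9, as did the glycogen phosphorylases Pygl with 13.4, which turned on centred values, and Pygm with -42.8. The fatty acid binding proteins Fabp5 and Fabp3 differed by 7.85 points, turning on centred values, and by -17.8. Atp2a3, a calcium pump outside muscle, was higher by 30.8 points and Atp2a2, the cardiac pump, differed by -2.51.

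Glucose enzymes and transporters were mostly lower in lung in both forms. Slc2a4, the insulin-regulated transporter, read 4.66, 4.66 and 4.64 in lung and 12.94, 12.94 and 13.01 in heart, a difference of -56.4 points, and Slc2a1 differed by -15.5. Hk1 and Hk2 differed by -16.5 and -35.9 points, Pfkl and Pfkm by -26.4 and -37.2, and Ldha and Ldhb by -3.16 and -4.46. Outside glucose metabolism, the creatine kinases Ckb and Ckm differed by -7.03 and -42.8 points. Pgam1 stood at the 94.1st percentile in lung and the 94.5th in heart and did not pass, while Pgam2 differed by -44.2 points. Among structural pairs, Actb and Tpm4 were higher by 0.737 and 8.42 points, Actb turning on centred and on deposited values, and Actc1 and Tpm1 differed by -2.06 and -5.02. Tpm1 has another probe set that ran the other way (11.03, 11.18 and 11.22 in lung, 8.61, 9.26 and 9.20 in heart). Its remaining probe sets were lower in lung, like the ranked one. They read 2.08, 2.02 and 2.02 in lung against 12.52, 12.84 and 12.94 in heart, and 7.31, 7.13 and 6.93 against 8.87, 9.36 and 9.29. Myl6 did not pass, beside -53.3 points for Myl3. Cav1 was higher by 3.22 points and Cav3, the muscle caveolin, differed by -41.4. The factor pairs Nkx2-1 and Nkx2-5 (41.5 and -85.2 points) and Tbx4 and Tbx20 (68.1 and -55.6) crossed over, and Gata6 and Gata4 were both lower (-10.6 and -67.2). Slc25a4, Eno3 and Cpt1a were measured without their partners: the first 2 differed by -0.927 and -23.7 points and Cpt1a did not pass.

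**Figure D4:**
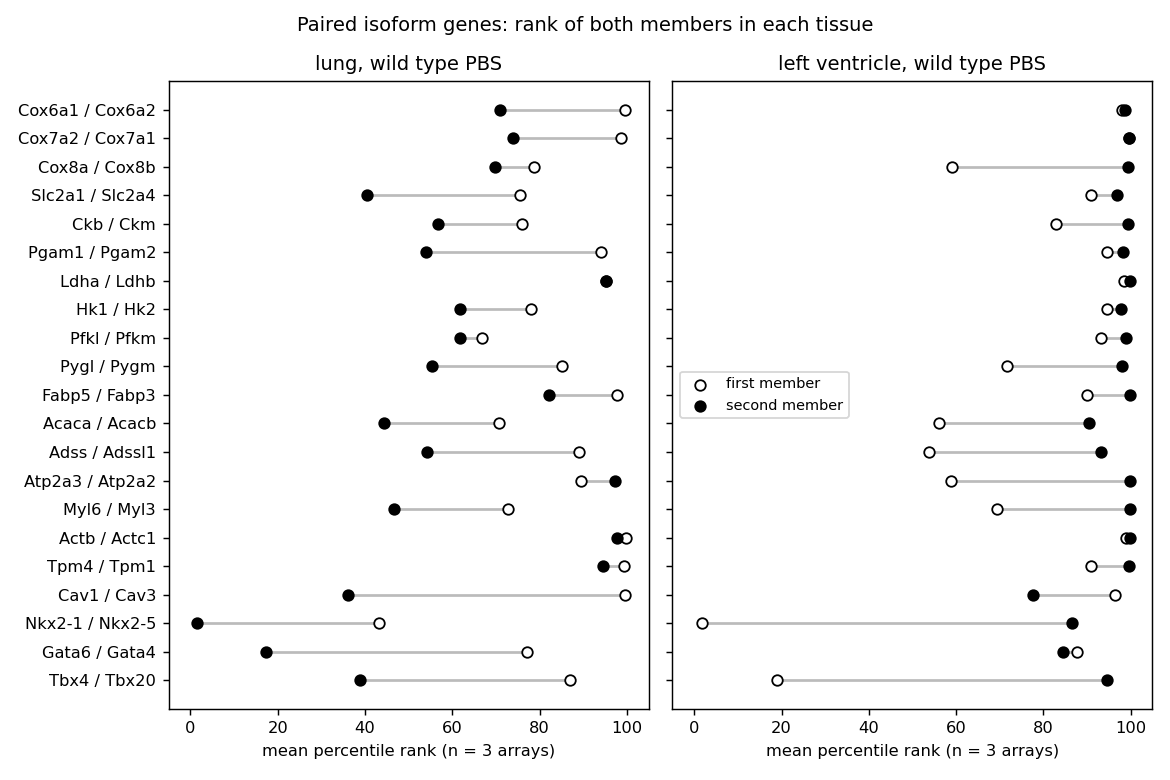
Mean percentile rank (x axis, n = 3 arrays) of both members of 21 isoform pairs in lung (left) and left ventricle (right). Open circles are the first-named form of many tissues or lung and filled circles the second-named, muscle or heart form, to be read across panels for each symbol. Filled circles lie further right in the heart panel for all 21 pairs.

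Vessel genes were close between tissues. Of 16 pan-endothelial markers 9 were higher in lung and 1 lower, beside 39.6% and 34.8% of all genes tested, and the median difference was 8.10 points. This list turned on lung replicate 1, whose mean log2 over the 16 genes was 9.76, against 11.29 and 11.36 in the other lungs. Without it 14 were higher and 1 lower. In wild-type mice under PM 12 were higher and 1 lower (13 and 1 without PM lung replicate 2), and in dnCREB mice under PBS 15 and 0. Cldn5, the tight junction protein of endothelium, read 11.64, 12.56 and 12.90 in lung and 8.01, 8.45 and 8.57 in heart, 29.7 points apart. Egfl7, Sox17, Kdr (VEGF receptor 2) and Vwf (von Willebrand factor) differed by 8.21 to 17.2 points, of which Egfl7, Sox17 and Kdr turned on centred values. Emcn (endomucin) differed by -9.62.

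Of 15 capillary genes 8 were higher and 4 lower in lung, beside 39.6% and 34.8% of all genes tested. The counts were 9 and 4 without lung replicate 1. Kit, carried by a class of lung capillary cells, read 9.77, 11.49 and 11.68 in lung and 2.76, 2.70 and 2.77 in heart, and Aqp1, a water channel, differed by 10.0 points. Genes known from heart capillaries were among the lower ones. Tcf15, a factor for fatty acid uptake by heart endothelium, read 3.47, 3.46 and 3.47 in lung and 9.33, 10.05 and 9.35 in heart, Aqp7, a glycerol channel, 3.56, 3.42 and 3.48 against 8.62, 9.71 and 10.20, and Fabp4 10.75, 10.39 and 8.59 against 15.73, 15.75 and 15.67.

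Of 14 smooth muscle and pericyte genes 6 were higher and 6 lower in lung, near the shares of all genes tested (39.6% and 34.8%), and 8 and 6 without lung replicate 1. The contractile genes Cnn1 (calponin), Tagln (transgelin), Mylk (myosin light chain kinase) and Lmod1 were higher by 20.8 to 46.0 points, with Cnn1 at 8.13, 8.79 and 8.19 in lung and 2.68, 2.66 and 2.73 in heart. The pericyte genes Rgs5 and Abcc9 were lower, Rgs5 with 8.30, 8.43 and 8.31 in lung and 13.93, 14.23 and 14.12 in heart and Abcc9 with 8.54, 8.15 and 7.63 against 13.76, 14.15 and 14.01. Abcc9, a potassium channel subunit, is also a gene of heart muscle.

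Of 18 fibroblast and matrix genes 12 were higher and 2 lower in lung, with a median of 13.8 points. Over all genes tested 39.6% were higher and 34.8% lower. Inmt, a methyltransferase of lung stroma, read 14.51, 14.99 and 14.90 in lung and 6.96, 8.03 and 6.83 in heart. Npnt (nephronectin, of alveolar basement membrane) read 12.29, 13.12 and 13.23 in lung and 4.23, 4.13 and 4.28 in heart. Col4a3 and Col4a4, basement membrane collagens of alveoli, differed by 57.1 and 38.5 points. Postn (periostin) read 12.10, 12.79 and 12.84 in lung and 8.83, 9.85 and 10.05 in heart. The proteoglycan genes Lum (8.28, 6.78 and 6.52 in lung, 12.02, 12.39 and 12.27 in heart) and Dcn (-4.64 points) were lower in lung. Without lung replicate 1, 14 were higher and 2 lower.

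Immune genes were higher in lung for lymphocytes and divided for macrophages. Of 13 lymphocyte genes 12 were higher and 1 lower, with a median of 36.8 points, beside 39.6% and 34.8% of all genes tested. All 13 exceeded log2 4 in every lung array and 2 did in every heart array. Nkg7, of cytotoxic cells, read 5.02, 5.25 and 5.06 in lung and 1.66, 1.62 and 1.66 in heart, Cd3e, of the T-cell receptor complex, 6.33, 6.74 and 6.76 against 2.17, 2.16 and 2.17, and Cd79a, of the B-cell receptor complex, 5.60, 6.50 and 7.14 against 2.33, 2.27 and 2.33. Cd8a was lower in lung (4.81, 4.80 and 4.88 in lung, 5.23, 5.74 and 5.36 in heart). Of 8 neutrophil genes tested 7 were higher, with heart replicate 1 apart: S100a8 read 12.50, 12.79 and 14.02 in lung and 11.81, 4.39 and 6.56 in heart. All 5 MHC class II genes tested were higher, with H2-DMa at 7.26, 7.59 and 7.69 in lung and 2.11, 2.10 and 2.13 in heart.

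Among 16 macrophage genes tested 9 were higher and 4 lower in lung, beside 39.6% and 34.8% of all genes tested. Genes used to mark alveolar macrophages were higher, Itgax (CD11c) with 6.44, 7.79 and 8.12 in lung and 2.04, 1.99 and 2.03 in heart, Plet1 with 8.69, 9.87 and 9.85 against 2.45, 2.37 and 2.44, and Krt79 and Atp6v0d2 by 37.6 and 36.9 points. The lysozymes Lyz1 and Lyz2 were at the top of the lung arrays and higher there by 1.44 and 3.93 points, and Lyz1 is also made by epithelium. Marco, a scavenger receptor, stayed under 4 in every array. The 4 that were lower were Adgre1 (F4/80) and the complement genes C1qa, C1qb and C1qc, with differences of -26.3 to -14.6 points, with C1qb at 9.06, 8.69 and 8.04 in lung and 14.06, 12.05 and 12.72 in heart. Without lung replicate 1, 11 were higher and 4 lower. In wild-type mice under PM 13 of 17 tested were higher in lung and 0 lower (12 and 1 without PM lung replicate 2), and in dnCREB mice under PBS 12 were higher and 5 lower.

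Enzymes that handle foreign compounds were higher in lung in 13 of 15 genes and lower in 0, with a median of 23.4 points. Over all genes tested 39.6% were higher and 34.8% lower. Cyp2s1, a cytochrome P450, read 10.38, 10.57 and 10.26 in lung and 2.11, 2.06 and 2.12 in heart, and Aox3, an aldehyde oxidase, 10.26, 9.83 and 10.70 against 2.13, 2.08 and 2.14. The aldehyde dehydrogenase genes Aldh1a1 and Aldh1a7 differed by 23.4 and 65.4 points. Near-identical copies exist in this family, and shared signal between them was not tested. Fmo2, a flavin monooxygenase, read 12.49, 13.29 and 13.08 in lung and 10.04, 9.02 and 9.06 in heart, and Gsta3, a glutathione transferase, differed by 30.8 points. Cyp1a1 and Sult1a1 did not pass.

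Receptors and enzymes that set vessel tone gave 5 higher and 4 lower in lung of 10 tested, shares near those of all genes tested (39.6% and 34.8%). With lung replicate 1 left out 6 were higher and 4 lower. Pde5a, which degrades cGMP, was higher in lung and read 10.65, 11.08 and 11.39 in lung and 7.54, 8.25 and 8.27 in heart, and Gucy1a1 and Gucy1b1, the subunits of the nitric oxide receptor, differed by 14.3 and 14.6 points. Npr3, the clearance receptor of natriuretic peptides, was higher by 20.9 points. Nos3, endothelial nitric oxide synthase, was lower in lung at 6.75, 7.41 and 6.89, against 8.94, 9.27 and 9.03 in heart, and Tbxa2r, the thromboxane receptor, differed by -27.8 points.

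Ribosomal protein genes ranked high in both tissues. Of 14 tested 8 were higher in lung and 0 lower, beside 39.6% and 34.8% of all genes tested, but no gene called differed by 25 points. The median over the 16 measured was 0.782 points, and the widest difference among them, 28.3 points, was in a gene that was not called. Without lung replicate 1, 8 were higher and 2 lower, and in wild-type mice under PM 12 were higher and 0 lower. In a test on the percentile rank itself 1 was higher and 0 lower. Rpl8 and Rps14 differed by 2.27 and 1.51 points and turned on centred values. Rps16 stayed between 1.90 and 1.97 in all 6 arrays. A probe set at background therefore does not show that a gene is silent. The 6 genes with the highest mean rank over the 6 arrays were Rps29, Fth1 (ferritin heavy chain), Tpt1, Rps28, Rpl13a and Gsn (gelsolin). Rps29 read 15.48, 15.54 and 15.56 in lung and 16.59, 16.60 and 16.50 in heart.

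Markers of tissues that could have been taken along were read in all 6 arrays. Of 6 mesothelial genes, of the surface that covers lung and heart, 5 were higher and 1 lower in lung, with Lrrn4 at 8.76, 7.96 and 7.81 in lung and 2.77, 2.70 and 2.80 in heart. All 6 exceeded log2 4 in every lung array and 1 did in every heart array, so the filter bears on this direction. Over all genes tested 39.6% were higher and 34.8% lower. None of 5 thymus and thyroid genes passed the filter. Of 8 squamous epithelium genes 2 were tested, Krt4 and Krt5, and both were lower in lung, where they stayed under 4. Of 7 adipocyte genes 2 were tested and 1, Cidec, was higher in lung at 4.51, 5.20 and 4.59, against 2.69, 2.60 and 2.69 in heart. Of 3 red-cell genes measured, Slc4a1 alone passed the filter and it was not called. Of 3 nerve and glia genes, Mbp was higher and Sox10 lower in lung.

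Clock genes varied widely among the arrays of each tissue. Of 15 tested, 1 was higher and 3 lower in lung, beside 39.6% and 34.8% of all genes tested. Without lung replicate 1 the counts were 0 and 1. Their values ran together across the tissues by replicate number, in a pattern picked out after the values were seen. Dbp, an output gene of the clock, read 9.12, 11.80 and 6.22 in lung and 10.48, 11.39 and 8.44 in heart. Arntl (BMAL1), a core activator, read 5.93, 3.32 and 7.20 in lung and 7.82, 6.88 and 8.82 in heart, and Nfil3, which opposes Dbp, 4.78, 3.79 and 6.06 against 7.58, 6.49 and 8.75. Replicate 2 was highest for Dbp and lowest for Arntl and Nfil3 in both tissues. The same replicate number was highest in both tissues for 10 of the 15 genes and lowest for 11, and both held for 9. Over all 11418 genes tested these shares were 33.4%, 34.1% and 16.1%. In wild-type mice under PM the counts were 10, 7 and 6, in dnCREB mice under PBS 9, 4 and 4, and in dnCREB mice under PM 6, 7 and 4. The sex markers above were opposite in the lung and the heart array of each number in wild-type PBS, so those arrays do not read as 1 mouse per number. Whether these arrays share time of day or handling by number was not tested.

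**Figure D5:**
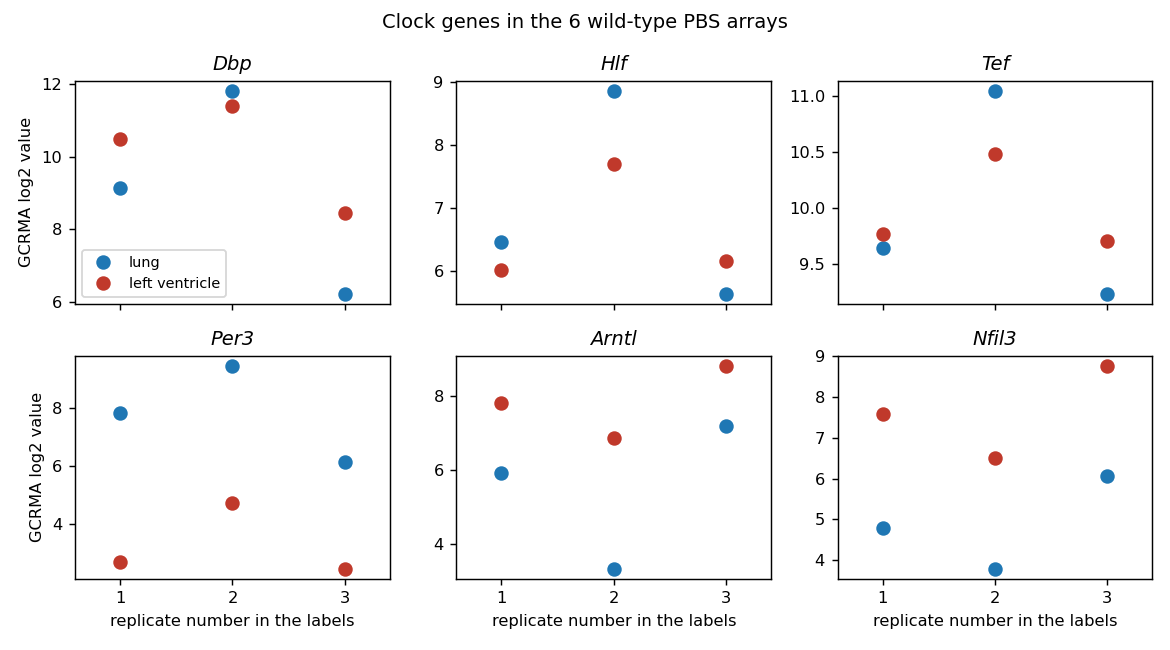
GCRMA log2 value (y axis) of 6 clock genes by replicate number in the labels (x axis), in lung (blue) and left ventricle (red). The scales of the tissues are separate, so the shape over the numbers is to be compared. Dbp, Hlf, Tef and Per3 are highest at number 2 in both tissues, and Arntl and Nfil3 lowest.

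The direction of a gene can hang on its probe set. Of 5033 genes with at least 2 probe sets tested, 3517 had at least 2 called, and in 1063 of these (30.2%) probe sets were called in opposite directions, beside 14986 of 19901 probe sets called in all (75.3%). The widest opposite pairs were in Spred1, Dtna, Aldh2, Pik3cd, Paip1, Camta1, Ttc19 and Marveld1. For Dtna (dystrobrevin) 1 probe set read 8.23, 8.99 and 8.56 in lung and 2.34, 2.32 and 2.34 in heart, and another 2.70, 3.91 and 3.02 in lung and 8.74, 8.60 and 8.24 in heart. For Aldh2, a mitochondrial aldehyde dehydrogenase, 1 read 8.98, 9.17 and 8.68 in lung and 2.35, 2.30 and 2.35 in heart, and another 4.69, 4.64 and 4.68 against 9.88, 9.32 and 10.33. Its ranked probe set, the brightest, stood at almost the same rank in both tissues. Which transcript each probe set reads was not tested.

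The tissue difference was last compared between conditions, by an interaction in the same kind of fit over 12 arrays. Between dnCREB and wild-type mice under PBS, 688 of 11640 genes (5.91%) had a different lung-minus-heart score, 302 (2.59%) larger in dnCREB and 386 (3.32%) smaller. The count turned on single arrays, with 1440 without wild-type lung replicate 1 and 400 to 451 without dnCREB lung replicate 1 or 3, dnCREB heart replicate 3 or wild-type heart replicate 2 or 3. Postn had a score difference of -1.78 ± 0.16 (SE). It read 12.54, 13.02 and 12.64 in dnCREB lung and 14.82, 14.95 and 15.44 in dnCREB heart, against 12.10, 12.79 and 12.84 in wild-type lung and 8.83, 9.85 and 10.05 in wild-type heart, so the heart arrays moved and the lung arrays overlapped. Ltbp2 (-2.02), Kcnj14 (-1.67), Slc2a3 (-1.64) and Itgbl1 (-1.42) were the others with the lowest differences. Ces1d, a carboxylesterase, had the highest (1.65 ± 0.10). It read 6.99, 6.84 and 4.35 in dnCREB heart and 12.25, 12.67 and 12.30 in wild-type heart, and 13.05 to 13.67 in all 6 lungs. Mylk4 (1.46), Mybpc2 (1.35), Ano10 (1.29) and Fos (1.14) followed. Under PBS, Xist was above 8 in 3 of 3 wild-type hearts and 0 of 3 dnCREB hearts, and Eif2s3y in 0 of 3 and 3 of 3. In the heart arrays, genotype and sex markers therefore cannot be told apart.

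Between PM and PBS in wild-type mice, 14 of 11722 genes (0.119%) had a different lung-minus-heart score, 13 (0.111%) larger and 1 (0.00853%) smaller under PM. It was 47 to 129 without any 1 PM lung, 86 without PBS lung replicate 1 and 6 to 9 without any 1 heart array. Nppb differed by 2.59 ± 0.17. It read 4.20, 5.53 and 5.78 in PM lung and 11.88, 12.12 and 11.31 in PM heart, against 1.51, 1.49 and 1.49 in PBS lung and 12.24, 12.74 and 11 in PBS heart. Nppa (1.51) read 11.16, 11.13 and 11.58 in PM lung, against 6.36, 4.93 and 7.64 in PBS lung, and Saa3 (1.64), an acute-phase protein, 12.53, 12.35 and 11.19 against 7.75, 7.38 and 7.43. Mybpc2 (1.67) and Fam167b (1.29) were also larger, and Sema3c (-1.31) was the 1 smaller. The sex markers moved with these groups too, since 2 of the 3 PM lungs had Xist above 8 and none of the PBS lungs did, and their part in the differences was not tested. The dnCREB and PM interactions share the wild-type PBS arrays.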

How the data were processed

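Lung and left-ventricle RNA was measured on Affymetrix mouse whole-genome arrays, 3 per group. The values were deposited as log2 signals made by the authors with GCRMA, per the submitters' processing notes, in versions not given in the sources used here. Of 45037 probe sets, 34945 had 1 gene symbol, 932 several and 9160 none. Where a gene had several, the one brightest on average over all 24 arrays stood for it, X, Y and unlocated genes were left out, and genes were ranked within each array. Ranks were turned to normal scores and fitted with limma 3.58.1 in R 4.3.3 over the 6 arrays, for genes above log2 4 in at least 3. P-values were adjusted by Benjamini-Hochberg over all genes tested, and a threshold of 0.05 was used. The fit was tested on simulated data with 50 genes shifted at each size. It found 40% of shifts of 1 log2 unit and 90% of shifts of 4, with 5 false calls among 10551 unshifted genes. Most genes differed between the tissues in the real data, a setting that the simulation did not cover. With 3 arrays per group the number of arrays limits the precision, and where animals are not stated to be separate, p-values measure the spread between samples.

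The restricted genes named are the 12 per tissue with the largest difference of mean normal score, predicted genes skipped, and the list genes named are the 6 with the smallest p. Genes named as exceptions, the muscle and clock genes plotted, and further probe sets were chosen after their values were seen. Members and lists were chosen with earlier results of these data known. Alternatives covered the scale, filters, thresholds, probe sets, other groups, left-out arrays and a replicate block. Same-numbered lung and heart arrays deviated together with correlations of 0.008, 0.015 and 0.038, so they were not treated as pairs.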

Additional observations from a re-analysis of the deposited data

Results flagged for a closer look

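Among the genes named, some had a lung-minus-heart score that differed between dnCREB and wild-type mice under PBS by the interaction test. It was larger in dnCREB mice for Abcc8 0.34, Ano10 1.29, Ces1d 1.65, Emcn 0.67, Esrrb 0.21, Fitm1 0.33, Fos 1.14, Gata6 0.5, Hand2 0.4, Hopx 0.62, Kcnd2 0.45, Kcnd3 0.28, Kcnh2 0.38, Kcnj3 1.09, Kcnj5 0.51, Mybpc2 1.35, Mylk4 1.46, Ndufs1 0.31, Ppara 0.55, Pygm 0.76, Rpl3l 0.79 and Yipf7 1.1. It was smaller for Aldh1a1 -0.98, Ccn5 -1.29, Itgbl1 -1.42, Kcnj14 -1.67, Ltbp2 -2.02, Npr3 -1.31, Postn -1.78, Sema3c -0.62, Sftpd -0.23, Slc2a3 -1.64 and Tpm4 -0.34. For a gene that reads higher in heart, a larger score is a narrower distance between the tissues. Between PM and PBS in wild-type mice the score differed for Fam167b 1.29, Mybpc2 1.67, Nppa 1.51, Nppb 2.59, Saa3 1.64 and Sema3c -1.31. Each value is the dnCREB or PM difference minus the wild-type PBS difference, in normal scores. Lung replicate 1 of wild-type PBS moved the genotype count most, and the sex markers differed between these groups too, with Xist above 8 in 1 of 3 dnCREB lungs and 0 of 3 dnCREB hearts, against 0 of 3 wild-type lungs and 3 of 3 wild-type hearts under PBS. Of the dnCREB PBS lungs 2 had neither Xist nor Eif2s3y above 8. Their part in these values was not tested.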

How the results depend on the processing

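Centring each array's log2 values on the median gave 2438 higher and 7408 lower in lung. Without a filter 14005 genes were called, 8268 lower. Asking for 3 arrays above the 50th percentile left 857 genes higher by 25 points. Testing every probe set gave 14986 calls, 8129 higher and 6857 lower, and 3792 of 25 points, 2441 higher and 1351 lower. The restricted genes numbered 102 in lung and 82 in heart above 9 and under 4, 488 in lung above 7 and under 4, 147 and 64 above 8 and under 3, 95 and 213 after centring, 103 in lung by the 80th and 50th percentile, and 137 and 81 with every probe set. The tissue difference by PM was called in 37 genes on the log2 values as deposited, 29 on percentile rank, 22 without a filter and 125 with all 24 arrays fitted. The cause of these shifts was not tested, except that fewer or more features entered under the filters and probe-set settings.

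Leaving out each array in turn gave 7568 to 9647 calls, 4006 to 5114 higher and 3562 to 4533 lower, with 2105 to 2203 of 25 points, 1298 to 1350 higher and 804 to 853 lower. Restricted genes then numbered 225 to 289 in lung and 130 to 140 in heart. The genotype interaction ranged over 400 to 1440 genes, the most without wild-type PBS lung replicate 1 and the fewest without wild-type PBS heart replicate 3. The PM interaction ranged over 6 to 129, the most without wild-type PM lung replicate 1 and the fewest without wild-type PM heart replicate 1 or wild-type PBS heart replicate 3. With the replicate number as a block, 4330 genes were higher and 3813 lower, 8032 of the calls were made in the same direction, and the PM interaction was called in 7 genes. Signal near background limits what is read of genes under log2 4.

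Of the genes named with a value, some changed the sign of lung minus heart under a setting, whether or not they passed. On centred log2 values the differences were Actb -1.60, Aldh2 -2.69, Cav1 -0.57, Cox6a1 -1.26, Cyp1a1 -0.30, Egfl7 -0.68, Fabp5 -0.43, Hopx -1.33, Kdr -0.47, Myl6 -1.51, Nebl -2.40, Pygl -0.55, Rpl8 -1.33, Rps14 -1.11, Rps29 -2.55, Sox17 -0.11 and Vcl -1.36, and on the log2 values as deposited Actb -0.0901, Aldh2 -1.17, Hydin 1.29, Nebl -0.89 and Rps29 -1.04. As normal scores they were Acta1 0.0217, C1qa 0.31, C1qc 0.0533, Krt4 1.03, Myl6 -0.20, Nebl -0.21 and Pgam1 0.11 in wild-type mice under PM, and C1qa 0.23, C1qc 0.0203, Krt4 0.47, Myl6 -0.15, Nebl -0.10 and Pgam1 0.0574 there without lung replicate 2, a setting chosen after seeing the data. They were Dbp 0.66, Emcn 0.30, Gata6 0.0818, Hydin 0.034, Krt4 1.03, Myl6 -0.0913, Npr3 -0.27, Postn -0.42 and Sult1a1 0.43 in dnCREB mice under PBS, Myl6 -0.037 and Postn -0.22 in dnCREB mice under PM, and Dbp 0.31, Jup 0.0368 and Sult1a1 0.00494 with array weights. With each PBS array left out in turn the scores ran over both signs for Aldh2 -0.0304 to 0.22, Cyp1a1 -0.0462 to 0.29, Dbp -0.55 to 0.38 and Jup -0.39 to 0.0579. The cause was not tested, apart from the shift of all genes that centring makes.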

Other observations

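Single heart arrays held values that the other hearts lacked. Heart replicate 1 read 11.81 for S100a8 and 11.68 for S100a9, against 4.39 to 7.67 for these neutrophil genes in the other hearts, and 8.60 for the airway gene Scgb3a1, against 2.93 and 2.95. Heart replicate 2 read 10.31 for Cyp2b10, a cytochrome P450, against 4.50 and 4.66. Adipoq, the adipocyte hormone adiponectin, read 6.99, 8.01 and 3.56 in lung and 2.17, 2.97 and 2.13 in heart. Car3, the carbonic anhydrase of fat and slow muscle, read 11.01, 12.08 and 8.79 in lung and 9.44, 10.61 and 5.69 in heart, lowest in replicate 3 of both tissues.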
